A study of Mus musculus with 8 samples.

Results

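CTCF binding was described at 10 imprinted mouse genes in 6 chromosomal domains: Kcnq1ot1 and Cdkn1c; Snrpn, Ndn, Magel2 and Ube3a; Plagl1; Igf2r; Gnas; and Mest. The genes were taken as a list of imprinted loci, noncoding genes included, and every CTCF region whose summit lay in a gene span or within 50 kb of it was read out. Of the 36186 regions of the NMDA list on assembled chromosomes, 27 lay in these windows, and of the 33815 regions of the control list, 30 did. The windows covered 1.77 Mb.

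The regions came from chromatin immunoprecipitation with sequencing (ChIP-seq) of CTCF in primary cortical neurons, cultured from embryonic day 16 Swiss-Webster mice that the labels give as wild type and kept for 13 days in vitro. NMDA-treated neurons received 50 µM NMDA, an agonist of the NMDA class of glutamate receptor, for 10 minutes and then recovered for 50 minutes; the labels give control neurons no NMDA. The series holds 8 samples in 4 groups of 2: NMDA CTCF ChIP, NMDA input, control CTCF ChIP and control input. The authors deposited 1 region list for each condition, built over both of its ChIP replicates, so a condition has no replicate error of its own and no difference between the lists could be tested. Sequencing depth is unknown from these lists. The lists hold no expression values, so whether the genes were active in these cultures, and which other cells the cultures held, could not be checked, and the parental alleles are not separated.

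At an imprinted gene, the copy inherited from one parent is expressed and the other is silenced, through DNA methylation that is set in the germ line and kept at an imprinting control region. The DNA-binding factor CTCF recognises a defined motif through its zinc fingers, can be blocked by methylation of CpG sites within it, and holds the ends of chromatin loops together with cohesin. Several of these domains carry a long noncoding RNA that represses its neighbours on the same chromosome: Kcnq1ot1, Airn at Igf2r, and Snhg14, which runs antisense into Ube3a and keeps its paternal copy silent in neurons.

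The sequences that carry the start-site results below are the 250 bases before the annotated start of 5 genes with a region at or beside that start and of 1 gene without any. They are RefSeq sequences of GRCm38.p6, read 5′ to 3′ on the strand of the gene. Capitals mark matches to the core of the CTCF motif (2 cytosines, 3 bases of any kind, adenine and guanine, 2 bases of any kind, 2 guanines and a cytosine), to a looser form in which the adenine may be any base, or, at Mest, to the hexamer TGCCGC of ZFP57, a zinc finger protein that keeps methylation at imprinted loci. Both strands were searched, and the core is by its construction also a match to the looser form.
Gnas, distal start, chr2:174284070-174284319, plus strand: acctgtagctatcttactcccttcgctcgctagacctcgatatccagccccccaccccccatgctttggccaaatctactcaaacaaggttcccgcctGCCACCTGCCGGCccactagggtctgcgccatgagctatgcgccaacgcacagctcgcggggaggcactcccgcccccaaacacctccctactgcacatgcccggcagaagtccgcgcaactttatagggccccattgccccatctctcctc
Igf2r, chr17:12769707-12769956, minus strand: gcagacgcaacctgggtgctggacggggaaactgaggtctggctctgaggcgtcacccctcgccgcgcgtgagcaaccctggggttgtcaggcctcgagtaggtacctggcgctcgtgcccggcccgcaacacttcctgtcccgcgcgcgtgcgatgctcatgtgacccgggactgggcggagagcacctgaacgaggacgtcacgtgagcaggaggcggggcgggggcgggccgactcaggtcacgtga
Ube3a, chr7:59228500-59228749, plus strand: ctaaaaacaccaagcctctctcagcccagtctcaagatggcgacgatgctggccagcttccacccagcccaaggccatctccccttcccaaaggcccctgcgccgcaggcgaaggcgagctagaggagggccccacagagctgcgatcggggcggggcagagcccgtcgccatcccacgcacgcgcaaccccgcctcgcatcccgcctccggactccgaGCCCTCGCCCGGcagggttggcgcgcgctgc
Mest, chr6:30737800-30738049, plus strand: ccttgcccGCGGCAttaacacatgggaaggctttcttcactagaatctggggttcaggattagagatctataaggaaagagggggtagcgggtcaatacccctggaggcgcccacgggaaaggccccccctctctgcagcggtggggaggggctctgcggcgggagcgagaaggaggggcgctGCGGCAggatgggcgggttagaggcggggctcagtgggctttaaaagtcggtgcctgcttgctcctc
Peg12, chr7:62464511-62464760, minus strand: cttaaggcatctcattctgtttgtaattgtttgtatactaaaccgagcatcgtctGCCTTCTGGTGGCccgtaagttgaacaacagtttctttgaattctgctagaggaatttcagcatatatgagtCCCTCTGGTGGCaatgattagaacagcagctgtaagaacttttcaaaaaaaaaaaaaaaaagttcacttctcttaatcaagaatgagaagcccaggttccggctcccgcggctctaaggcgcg
Kcnq1ot1, chr7:143296548-143296797, minus strand: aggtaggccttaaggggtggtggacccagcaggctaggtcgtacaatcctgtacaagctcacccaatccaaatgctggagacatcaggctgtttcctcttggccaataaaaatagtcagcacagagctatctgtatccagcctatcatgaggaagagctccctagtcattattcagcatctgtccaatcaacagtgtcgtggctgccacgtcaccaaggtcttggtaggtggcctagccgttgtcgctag

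Most CTCF regions at these domains were found in both lists. A region was called shared when it overlapped a region of the other list by at least 1 bp, and was otherwise called NMDA-only or control-only. In the NMDA list 24 of the 27 domain regions were shared and 3 were NMDA-only, a share of 11.1% (95% Wilson interval 3.85 to 28.1), against 15.5% of the whole NMDA list. In the control list 25 of the 30 were shared and 5 were control-only, 16.7% (7.34 to 33.6), against 9.22% of the whole control list. Both intervals contain the share of the whole list; they cover counting error only, since neighbouring regions are not independent. The 3 NMDA-only regions lay at the 3′ end of Phlda2, at the start of Igf2r and beside the proximal start of Gnas. The 5 control-only regions lay inside Ube3a, before the start of Magel2, inside Plagl1, inside Gnas, and inside Mest over the microRNA gene Mir335. Counting regions as shared only when they overlapped reciprocally by 50%, or only when their summits lay within 100 bp, gave 5 NMDA-only and 8 control-only regions. These were 18.5% and 26.7% of the domain regions. Over the whole lists the reciprocal rule gave 20.4% NMDA-only and 14.8% control-only, and the summit rule 21.4% and 15.9%. Keeping only regions with a reproducibility score of at least 700 gave 3 NMDA-only regions and 1 control-only region. These were 12% and 4.17% of the domain regions, against 16.4% and 6.83% of the whole lists.

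**Figure D1:**
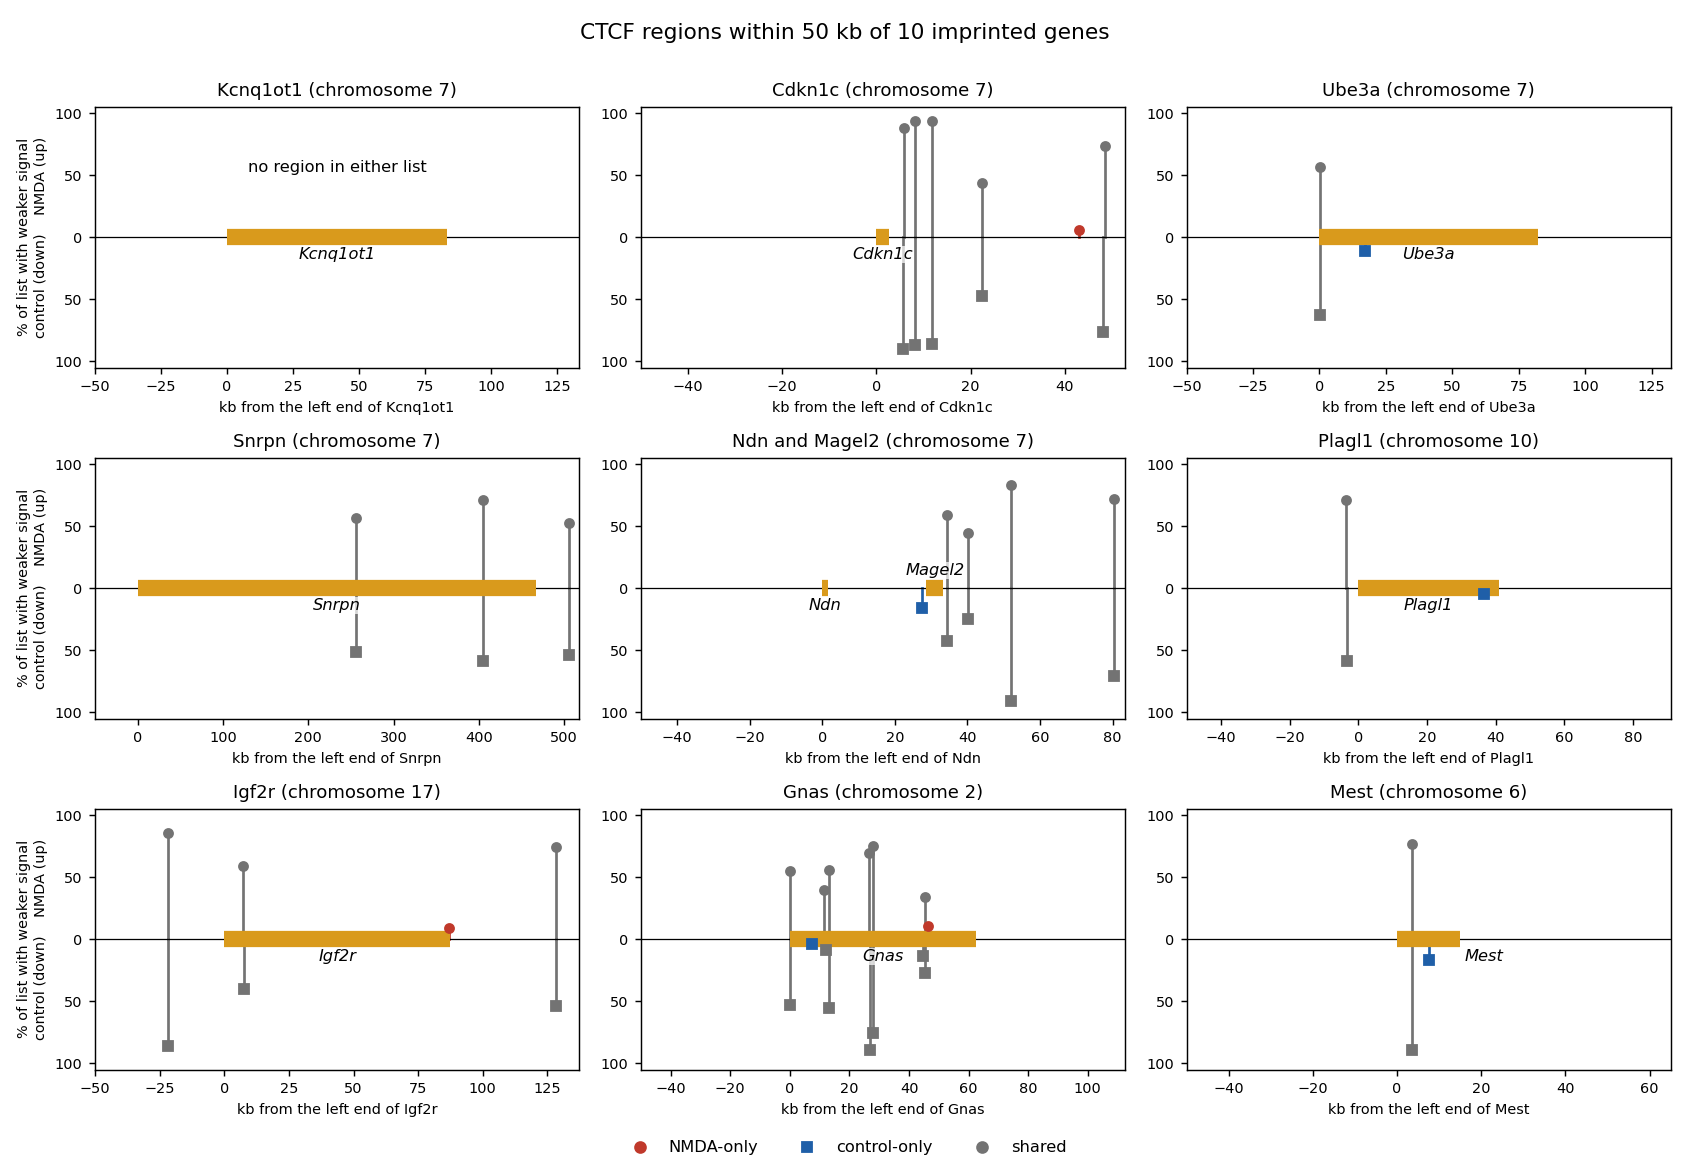
CTCF regions in the 9 windows, with position in kb from the left end of the first gene on the x axis and, on the y axis, the percentage of the list that had a weaker signal, upward for the NMDA list (circles) and downward for the control list (squares). Yellow bars are the gene spans; the 24 shared NMDA regions and their control partners are grey, the 3 NMDA-only regions red and the 5 control-only regions blue, and both coloured kinds sit close to the midline.

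The signal of a region is the −log10 p-value that the authors deposited with it. It was used only to place regions within their own list, as the percentage of the list down to and including that region when ordered from the strongest; a small percentage is a strong region. In the map of the 9 windows the same places appear turned round, so that strong regions stand far from the midline. Places in lists of different lengths do not measure a change in binding, and they are given side by side for description.

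The Kcnq1ot1 domain on chromosome 7 had no CTCF region within 50 kb of Kcnq1ot1 and a dense group beside Cdkn1c. Kcnq1ot1 (Entrez gene 63830, chr7:143213111-143296547) is the paternally expressed noncoding RNA of the domain, and its nearest summits lay 59.1 kb beyond its left end and 168 kb beyond its right end in both lists. Its start, where the RNA begins, was 143 kb from the nearest summit in either list, and the 250 bases printed above held neither form of the CTCF core nor the ZFP57 hexamer. Cdkn1c (Entrez gene 12577, chr7:143458339-143461059), a maternally expressed inhibitor of cyclin-dependent kinases, had 6 regions in its window in the NMDA list and 5 in the control list. None lay within 1 kb of the gene, and the nearest summit was 3.03 kb from it in the NMDA list and 3.02 kb in the control list.

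The 3 regions nearest to Cdkn1c were among the strongest at any of the 6 domains. The first, chr7:143463213-143465567 in the NMDA list, lay inside the noncoding gene Gm33663; its signal was 307 in the NMDA list (place 11.9%) and 508 in the control list (place 9.72%). The second had its summit 13 bp before the annotated start of Gm33663 in the NMDA list and 31 bp before it in the control list. Its places were 6.49% and 13.01%. The third stood between Gm33663 and the transporter gene Slc22a18, with a signal of 408 in the NMDA list (place 6.34%) and 431 in the control list (place 13.9%). The second and the third were the only 2 NMDA regions of the 6 domains in the strongest decile of their list, and the first was one of 2 control regions in the strongest decile of theirs. A weaker shared region inside Slc22a18 had places of 55.9% in the NMDA list and 52.6% in the control list.

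The NMDA-only region of this domain, chr7:143500857-143501470, was 614 bp wide and its summit lay 286 bp beyond the 3′ end of Phlda2 (chr7:143501545-143503145), a maternally expressed growth-restraining gene best known in placenta. The 2 NMDA replicates gave it signals of 11.05 and 12.2, 23.2 in sum, which placed it at rank 34164, 94.4% down the NMDA list. The lowest values of these replicate columns anywhere in the list are 7.41 and 8.84. The nearest control summit lay 5271 bp away, in a region shared by both lists whose summits stood 383 bp apart; its place was 26.8% in the NMDA list and 23.3% in the control list.

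The Snrpn-Ube3a domain, also on chromosome 7, had the widest windows and no NMDA-only region. It held 8 regions in the NMDA list, all shared, and 10 in the control list, of which 2 were control-only. Per Mb this was 9.06 regions in the NMDA list and 11.3 in the control list, below 15.2 and 16.9 over all 6 domains. In people, loss of the paternal copy of the region underlies Prader-Willi syndrome and loss of maternal UBE3A underlies Angelman syndrome.

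Snrpn (Entrez gene 20646, chr7:59982495-60450177) encodes a protein of the splicing machinery and shares its span with the noncoding Snhg14. It held 2 shared regions, and 1 more lay 38.0 kb beyond the right end. The regions inside Snrpn had places of 43.4% and 28.8% in the NMDA list and 48.3% and 41.5% in the control list, and the one beyond it 47.0% in the NMDA list and 46.5% in the control list. All 3 were therefore in the stronger part of both lists without reaching their top. No region lay over any of its 4 annotated starts: the start at position 60005199, which is also that of Snurf, was 234 kb from the nearest summit in both lists, and its 250 bases had a GC content of 36.8%.

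Ube3a (Entrez gene 22215, chr7:59228750-59310837) encodes a ubiquitin ligase that neurons express from the maternal copy. A shared region covered its start, with the summit 251 bp inside the gene in the NMDA list and 238 bp in the control list. Its signal was 62.9 in the first and 49.2 in the second NMDA replicate column, 112 in sum (place 43.4%), and 229 in the control list (place 37.2%). The sequence before the start, printed above, was 70.0% GC and held 1 match to the looser CTCF form, at bases -31 to -20 counted back from the start. A control-only region of 594 bp, chr7:59245438-59246031, had its summit 16942 bp into Ube3a, with a signal of 53.4 (place 88.6%). The nearest NMDA region was the one at the start of the gene.

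Ndn (Entrez gene 17984, chr7:62348277-62349928) and Magel2 (Entrez gene 27385, chr7:62376979-62381640) are intronless, paternally expressed genes of the MAGE family that lie next to each other. Neither held a region inside its span. Ndn had no region within 1 kb, the nearest summit being 32.7 kb away in the NMDA list and 25.9 kb away in the control list. Magel2 had a shared region beyond its 3′ end, with the summit 980 bp from it in the NMDA list and 971 bp in the control list, and places of 40.7% and 57.9%.

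On the other side of Magel2 a control-only region, chr7:62375392-62376543, had its summit 1117 bp before the start of the gene. It was 1152 bp wide and had a signal of 61.2 (place 84.3%) and a score of 584, low on a scale that runs from 540 to 1000 in this list. Of 3 further shared regions beyond Magel2, the one at chr7:62399677-62401127 was the strongest control region of all 6 domains, with a signal of 524 (place 9.08%), and had a signal of 255 in the NMDA list (place 17.0%). The last of the 3 was 46.9 kb from Magel2, just inside the 50 kb limit in both lists. The first region outside the limit stood 51.8 kb from Magel2 in the NMDA list, where its place was 37.2%, and 51.9 kb from it in the control list, where its place was 52.5%.

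Peg12 is a paternally expressed companion gene of this domain whose start lies outside the windows. The sequence before its start held the CTCF core and lay under a region in both lists. A shared region had its summit 32 bp before the Peg12 start in the NMDA list and 50 bp before it in the control list. The 250 bases printed above held the CTCF core at -195 to -184, with its centre 158 bp from the NMDA summit and 140 bp from the control summit, and a match to the looser form overlapped it on the other strand at -194 to -183. A further match to the looser form, at -123 to -112, was centred 86 bp from the NMDA summit and 68 bp from the control summit.

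Plagl1 (Entrez gene 22634, chr10:13090832-13131694), a paternally expressed zinc finger factor that restrains cell division, had 1 region in the NMDA list and 2 in the control list. The shared region lay before the gene, 3.46 kb from the start in the NMDA list and 3.44 kb in the control list. Its signal in the NMDA list was 41.5 in the first and 134 in the second replicate column, 175 in sum (place 28.7%), and in the control list 207 (place 41.2%). The control-only region, chr10:13127286-13127844, was 559 bp wide, lay inside Plagl1 and had a signal of 43.0 (place 95.02%). The 250 bases before the Plagl1 start held 1 match to the looser CTCF form and 1 ZFP57 hexamer and lay under no region of either list.

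Igf2r (Entrez gene 16004, chr17:12682406-12769706) encodes the receptor that clears the growth factor IGF2 and carries lysosomal enzymes, and its start was covered by a region in the NMDA list alone. That region, chr17:12769121-12769972, was 852 bp wide, with its summit 269 bp inside the gene and also inside the antisense noncoding gene Airn, which represses the paternal copy of Igf2r in most tissues. Signals of 8.50 and 17.2 in the NMDA replicates, 25.7 in sum, put it at rank 33021, 91.3% down the list, with a score of 640. The 2 replicate summits were 13 bp apart. The nearest control region lay 40234 bp away.

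The sequence before the Igf2r start, printed above, was 69.2% GC with 27 CpG sites, where the median of 32851 annotated starts was 52.4% GC and 6 CpG sites. It held neither form of the CTCF core and no ZFP57 hexamer, which says only that these letters are not in that window. The other 3 regions of the window were shared. The one inside Igf2r had places of 40.8% in the NMDA list and 59.9% in the control list, and the one inside Airn had places of 25.4% in the NMDA list and 45.9% in the control list.

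Gnas (Entrez gene 14683, chr2:174284320-174346744) had the most closely packed regions, 43.1 per Mb in the NMDA list and 49.3 per Mb in the control list. The locus encodes the stimulatory G protein alpha subunit and, from other starts on one parental copy or the other, the further products Nesp55 and XLαs; the antisense RNA Nespas (Gnasas1 in the annotation) crosses its distal end. It held 7 regions in the NMDA list, 1 of them NMDA-only, and 8 in the control list, 1 of them control-only. At the distal start a shared region had its summit 99 bp before the start in the NMDA list and 100 bp in the control list, with signals of 106 (place 45.2%) and 180 (place 46.7%). The CTCF core in the sequence printed above, at -152 to -141, was centred 48 bp from the NMDA summit and 46 bp from the control summit. It was the only CTCF core in the 17 annotated starts of the member genes.

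Just beyond the right end of the Nespas span, where this antisense RNA begins, stood a shared region inside Gnas whose summits were 429 bp apart. They lay 432 bp from that end in the NMDA list and 861 bp from it in the control list. In the NMDA list it was 1858 bp wide with a place of 59.9%, and in the control list 800 bp wide with a place of 91.7%. In the NMDA replicates its summits were 1032 bp apart, more than the distance between the lists. The next region, chr2:174296817-174298502, had places of 44.4% in the NMDA list and 44.2% in the control list. Farther in, the region chr2:174310500-174311300 had a signal of 167 in the NMDA list (place 30.2%), made up of 63.6 and 104 in the replicate columns, and 481 in the control list (place 11.004%). Its neighbour, chr2:174311601-174312767, had signals of 196 (place 25.1%) in the NMDA list and 316 (place 24.6%) in the control list.

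At the proximal start of Gnas, at position 174330006, the lists were cut differently. The NMDA list had 1 region of 1443 bp, chr2:174328532-174329974, with a signal of 53.8 (place 66.2%), which overlapped 2 control regions. The control regions were 2226 bp and 585 bp wide, with signals of 57.1 (place 86.6%) and 85.5 (place 73.1%). The NMDA-only region, chr2:174330496-174331477, followed with its summit 827 bp inside the start and its edge 407 bp from the nearest control region. The NMDA replicates gave it signals of 11.05 and 15.8, 26.8 in sum, at rank 32398 (place 89.5%), with a score of 792. Extending every region by 500 bp made it shared. The control-only region of the locus, chr2:174291587-174292120, lay inside both Gnas and Nespas, was 534 bp wide and had a signal of 41.2 (place 96.1%).

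Mest (Entrez gene 17294, chr6:30733506-30748466), a paternally expressed gene for a protein of the hydrolase family, had 1 region in the NMDA list and 2 in the control list. The shared region was wide, 2536 bp in the NMDA list and 1995 bp in the control list, and reached over the start at position 30738050, with its summit upstream, at -902 bp from that start in the NMDA list and -911 bp in the control list. Its signal was 112 and 97.7 in the NMDA replicate columns, 209 in sum (place 22.9%), and 480 in the control list (place 11.1%). The sequence printed above lay under it and held the ZFP57 hexamer on the opposite strand at -242 to -237 and at -67 to -62, and no CTCF core of either form.

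The control-only region at Mest, chr6:30740626-30741499, was 874 bp wide with a signal of 63.3 (place 83.3%) and a score of 717, and it covered the hairpin of the microRNA gene Mir335 (chr6:30741299-30741396), which sits inside Mest. The nearest NMDA region was 1270 bp away. The products of Mir335 are shown because, of the microRNA genes annotated in these windows, this one alone lay under a region of either list; capitals mark the seed, bases 2 to 8, which pairs with target RNAs.
mmu-miR-335-5p: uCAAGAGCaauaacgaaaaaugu
mmu-miR-335-3p: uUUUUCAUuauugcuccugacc

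**Figure D2:**
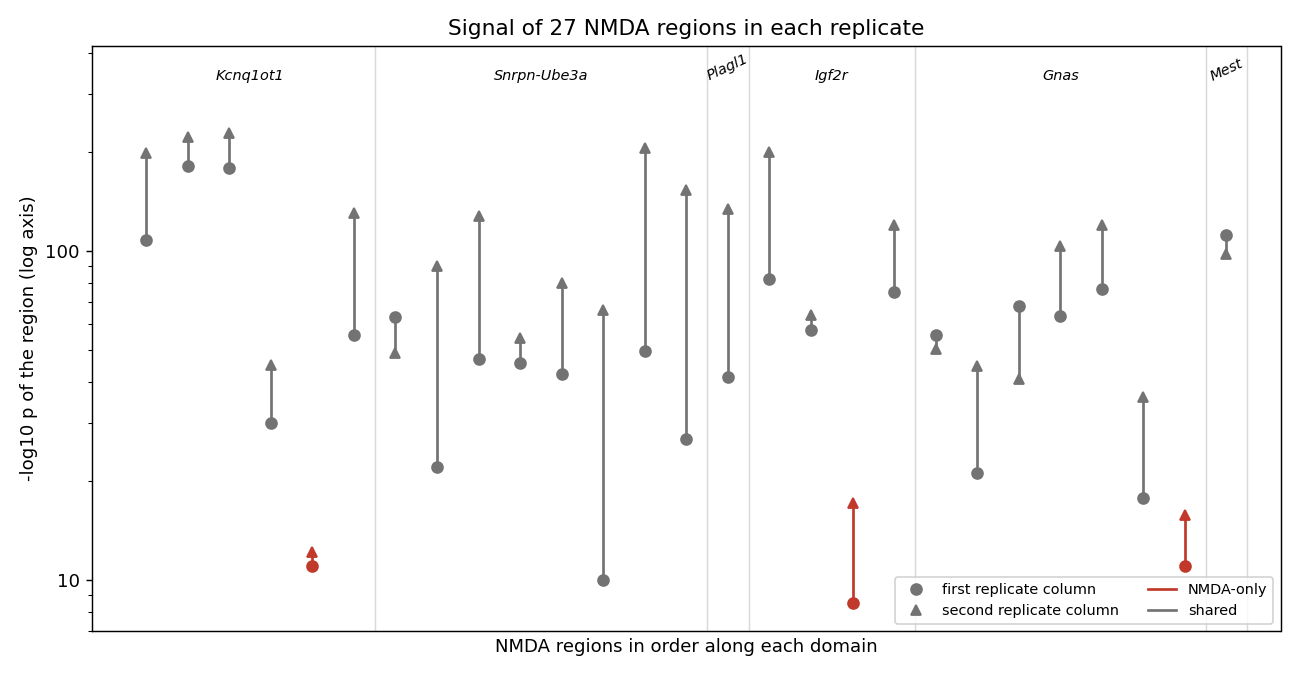
Signal of the 27 NMDA regions in the 2 replicates of the NMDA list, as −log10 p on a log axis, in order along each domain; circles are the first replicate column, triangles the second, and a line joins the values of 1 region. The 3 NMDA-only regions, in red, lie at 17.2 or below in both columns, and the second column is the higher in 23 of 27 regions.

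The NMDA list gives the signal of each region in each replicate, which is the replicate spread available here; the control list gives no such columns. The second replicate column was higher in 23 of the 27 domain regions, against 79.4% of all NMDA regions, with a median ratio of second to first of 1.63 at the domains and 1.46 over the list. Neither column is tied to a named replicate. The ratio reached 6.61 at the region chr7:62387921-62389582 beyond Magel2, where the columns read 10.0 and 66.3. The first column was higher in the other 4 regions: at the Ube3a start, at the Gnas distal start, at chr2:174296817-174298502 in Gnas (68.1 and 40.8) and at Mest. The replicate summits lay within 100 bp of each other in 20 of the 27 regions, against 78.7% of all NMDA regions. The plot of the replicate columns shows the 3 NMDA-only regions below every shared region in the second column.

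**Figure D3:**
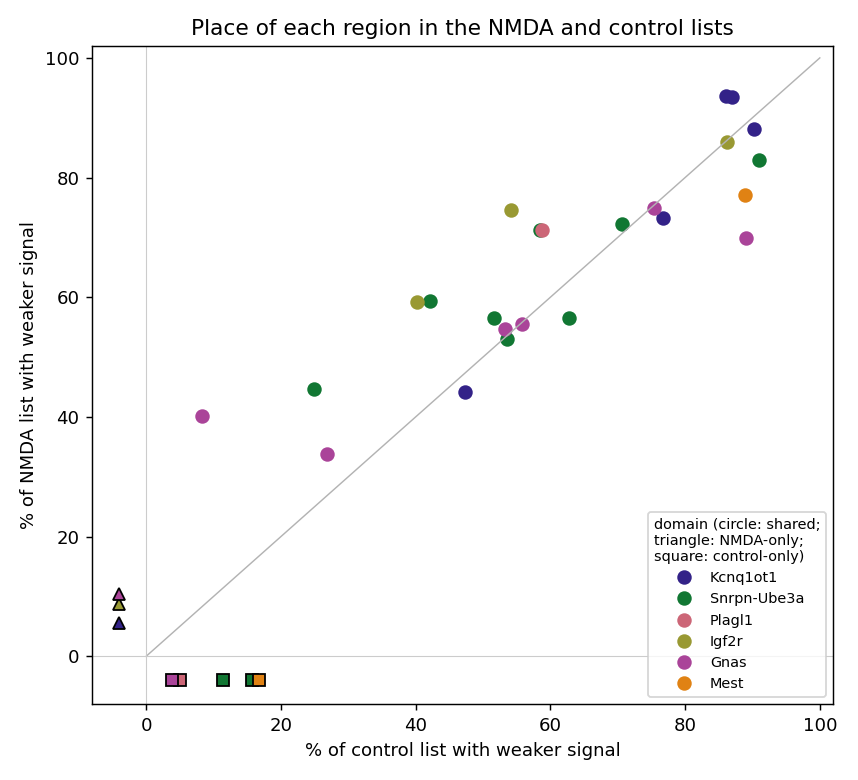
Place of each domain region in the NMDA list (y axis) and the control list (x axis), as the percentage of the list with a weaker signal; circles are the 24 shared pairs, triangles at the left edge the 3 NMDA-only regions and squares at the lower edge the 5 control-only regions, coloured by domain. The line marks equal places; list-only regions lie at the weak end of their own list.

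Shared regions kept nearly the same summit in both lists. The distance between the summits of a pair had a median of 20.5 bp over the 24 domain pairs (quartiles 9.75 and 25.75). Over all 30570 pairs the median was 18 bp (quartiles 8 and 34). Of the domain pairs, 22 had summits within 100 bp. The exceptions were the regions 383 bp apart near Phlda2 and 429 bp apart in Gnas. Shared regions were wider in the NMDA list in 17 of the 24 pairs. The median ratio of widths was 1.18 (quartiles 0.984 and 1.31), against 1.08 over all pairs (quartiles 0.899 and 1.30). How many of all pairs were wider in the NMDA list, or had summits within 100 bp, was not counted, so neither count is particular to the domains. The place in the NMDA list minus that in the control list had a median of -1.60 percentage points and ran from -31.8, in the Gnas region with separate summits, to 19.2, in the Gnas region at chr2:174310500-174311300. Over all pairs the median was -2.28 points. In the plot of places these 2 Gnas pairs are the farthest from the line on either side, while the other 4 Gnas pairs differ by -6.88 to 0.56 points.

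List-only regions were weak ones. The places of the 3 NMDA-only regions ran from 89.5% to 94.4%, where the median of all NMDA-only regions was 87.7%, and those of the 5 control-only regions from 83.3% to 96.1%, where the median of all control-only regions was 90.5%. Of all domain regions, 20 of 27 lay in the stronger part of the NMDA list, above its median, and 18 of 30 in that of the control list. The NMDA list is also the longer of the lists, and the part that list length and weak signal have in the list-only regions was not tested.

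**Figure D4:**
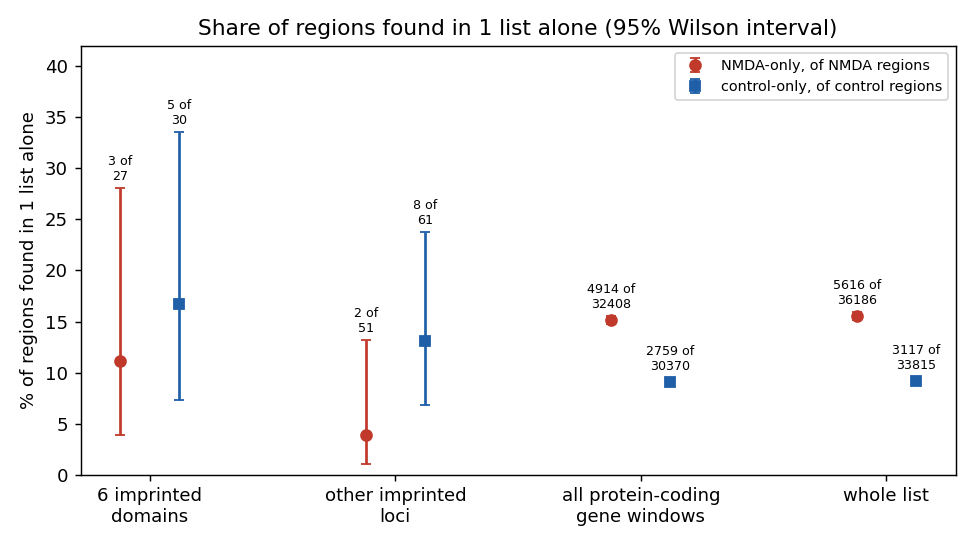
Share of regions found in 1 list alone, in percent with 95% Wilson intervals, for the 6 domains, 12 windows of 20 other imprinted genes, the windows of all protein-coding genes and the whole list; red circles are NMDA-only regions as a share of NMDA regions and blue squares control-only regions as a share of control regions. At the 6 domains the shares were 11.1% and 16.7%, and in the whole lists 15.5% and 9.22%.

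Windows of the same kind around 20 other imprinted genes held 51 regions in the NMDA list, of which 2 were NMDA-only (3.92%, 95% Wilson interval 1.08 to 13.2), and 61 in the control list, of which 8 were control-only (13.1%, 6.80 to 23.8). Both sets of imprinted windows thus had a larger control-only than NMDA-only share. The windows of all 21883 protein-coding genes had 15.2% NMDA-only and 9.08% control-only. The order at the 6 domains turned when only scores of at least 700 were kept. In the whole lists the order did not turn under any setting tried, though the shares came closer under one of them. When the weakest NMDA regions were dropped until 33815 remained, the whole lists had 11.7% NMDA-only and 11.1% control-only. The 6 domains then had 7.69% and 16.7%. With scores of at least 700 the 6 domains had 12% NMDA-only and 4.17% control-only. With 1 list a condition no test of the order of these shares was made. The intervals of both imprinted sets overlap each other. By density the 6 domains held 15.2 regions per Mb in the NMDA list and 16.9 in the control list, the other imprinted windows 18.7 and 22.4, and the protein-coding windows 19.2 and 18.01. The median place was 40.7% in the NMDA list and 46.2% in the control list at the 6 domains, and 23.9% and 39.3% at the other imprinted windows. The plot of list-only shares shows the same 4 sets, with intervals that narrow as the sets grow.

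Member by member, the windows held 0 regions in both lists at Kcnq1ot1 and up to 7 in the NMDA list and 8 in the control list at Gnas. Ube3a, Plagl1 and Mest each had 1 in the NMDA list and 2 in the control list, and Ndn had 2 and 3. For all protein-coding genes the median window held 4 regions in the NMDA list (quartiles 1 and 6) and 3 in the control list (quartiles 1 and 5), and windows with none made up 17.0% and 17.5% of them. A region lay within 1 kb of an end at 4 member genes in the NMDA list (Magel2, Ube3a, Igf2r and Gnas) and at 3 in the control list (Magel2, Ube3a and Gnas), of 10 members. Among all protein-coding genes 29.5% had such a region in the NMDA list and 29.0% in the control list.

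Start by start, the 250 bases before the 17 annotated starts of 9 member genes were under a region at 6 starts of 4 genes in the NMDA list and at 7 starts of 3 genes in the control list; Cdkn1c is not among the starts used here. Over all 32851 annotated starts, 20.0% were under an NMDA region and 19.9% under a control region. The genes were Ube3a, Igf2r, Gnas and Mest in the NMDA list and the same ones without Igf2r in the control list. Within Gnas the lists also differed. The bases before its starts at positions 174327749 and 174327768 were under a control region and under no NMDA region. Some starts of Gnas and Mest are so close that their sequences overlap, and the 17 starts make up 15 separate stretches, of which 5 were under an NMDA region and 5 under a control region. The CTCF core was found in 1 of the 15 stretches, the looser form in 3 and the ZFP57 hexamer in 2, and in 7.17%, 21.4% and 8.68% of all 32851 starts, in which overlapping starts were counted singly. Over all starts, 16.6% of those under an NMDA region held the core, against 4.80% of those under none. With the control list the same shares were 16.6% and 4.82%. The median distance from a member start to the nearest summit was 3.46 kb in the NMDA list and 3.44 kb in the control list, against 11.7 kb and 12.5 kb for all starts.

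The companion genes of these domains were counted as a list of 27, of which 26 were matched in the annotation. A region lay within 1 kb of an end at 8 of the 26 in the NMDA list and at 8 in the control list, beside 18.2% and 17.8% of all annotated genes, noncoding ones included, and the 29.5% and 29.0% of protein-coding genes. Of these, 7 had a shared region there: Cd81, a tetraspanin; Ascl2, a basic helix-loop-helix factor; Nap1l4, a histone chaperone; Osbpl5, an oxysterol-binding protein; Peg12; Nespas; and Copg2, a coat protein of transport vesicles that lies next to Mest. Phlda2 had the NMDA-only region described above, and Kcnq1, the potassium channel gene around Kcnq1ot1, had a control-only region 413 bp from an end that falls outside the windows.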

How the data were processed

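CTCF ChIP-seq was made from 2 replicates each of NMDA-treated and control neurons, with input libraries that were not analysed here. The tools named are MACS2, BWA, SAMtools, Trimmomatic and FastQC, with the builds mm10 and GRCm38.p6, per the submitters' processing notes; their versions: not given in the sources used here. The authors deposited 1 list per condition, whose name points to the irreproducible discovery rate (IDR) method for keeping regions with matching ranks between replicates. The deposited score runs from 540 to 1000 and rises with reproducibility. The deposited −log10 p of a region is the signal, and is the sum of the 2 replicate columns in 36186 of 36186 NMDA regions, within 0.001. Depth is unknown.

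From the lists, 7 NMDA and 5 control regions off the assembled chromosomes were left out. Regions were placed by summit, classed by 1 bp overlap and ranked by signal within a list, with Python 3.11.15, pandas 2.3.3, numpy 2.4.6, scipy 1.17.1 and matplotlib 3.10.9; the overlap step was tested on simulated data. Gene spans, starts and sequences came from RefSeq tables of GRCm38.p6 (10 of 10 members matched). Exons, introns and sequence within regions were not analysed here. All 10 members were named, companion genes where a summit lay within 1 kb of an end, and other genes where a region lay within 1 kb of their end or they were nearest to a list-only region. The position of 1 shared region is not reported here. The members and lists were chosen with earlier results of these data known. A growth protocol also mentions etoposide, which no label gives to a sample.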

Additional observations from a re-analysis of the deposited data

How the results depend on the processing

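Control-only regions outnumbered NMDA-only regions at the domains under every way of pairing the lists and every window tried, and the order turned only with the stricter score. These settings class largely the same few regions, so their agreement is not independent support. Extending regions by 500 bp gave 2 NMDA-only and 5 control-only regions. These were 7.41% and 16.7% of the domain regions, against 14.3% and 8.45% of the whole lists. Requiring 50% reciprocal overlap, or summits within 100 bp, each gave 5 NMDA-only and 8 control-only regions. The whole-list shares under these rules and under the stricter score stand beside the counts in the results above. Keeping scores of at least 700 left 1 control-only region, 4.17% of control regions, beside 3 NMDA-only regions; 6 of the 8 list-only regions have scores below that, and the 3 NMDA-only ones include shared regions whose control partner dropped out. Of the recomputed main values that an alternative could move, 51 stayed close to the reported ones (shares within the interval, counts within 1.5 times, median places within the spread over regions) and the 6 above did not; 14 more, such as region counts when the overlap rule changes, are fixed by construction. The order of the NMDA-only and control-only shares reversed at scores of at least 700, from 11.1% and 16.7% to 12% and 4.17%. Limiting the NMDA list to its 33815 strongest regions removed the Phlda2 region. Extending regions by 500 bp made the NMDA-only Gnas region shared. The remaining list-only regions stayed so wherever they were present. No paired analysis was possible because each condition has 1 list over both replicates, so no replicate could be left out either. Ordering by the column for signal value was not run, since it holds the same filler value in every region. Depth, which is unknown, limits how far a weak region absent from a list can be read as absent.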
